A study of Mus musculus with 8 samples.

Results

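The early secretory pathway was followed in mouse embryonic stem cells (ESCs) through the read counts of 69 genes that encode the endoplasmic reticulum (ER) translocon, its targeting and folding partners, and the COPI and COPII vesicle machinery. The genes were picked by a pattern in their symbols, with Arcn1 added by name, out of the 24421 genes listed in every count table. All 69 were found in the mouse annotation. The cells were of the R1 ESC line, and every group in the data derives from this 1 line. Undiff cells had received no retinoic acid (RA), a vitamin A derivative that drives ESCs to differentiate. Day4 cells had been exposed to RA for 4 days at 2 µM, a dose that 1 label field writes in mM. RA was added to embryoid bodies, cell clusters grown for 4 days without the cytokine LIF. The sources differ on Undiff, which the study's methods describe as ESCs kept with LIF and the labels as embryoid bodies. By the methods, Day4 and Undiff differed in culture form, LIF, age and RA together, and these cannot be told apart. Polyadenylated RNA of each state was read with 2 Oxford Nanopore kits, ONT Direct RNA, in which the native RNA passes through the pore, and ONT cDNA, in which a PCR-amplified copy does. Each kit and state had 2 replicates, giving 8 libraries in 4 groups, and both kits read RNA of the same cultures.

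A protein destined for secretion is recognised by its signal sequence while it is being made. The signal recognition particle brings the ribosome to the ER membrane, the Sec61 channel admits the chain, signal peptidase removes the signal, and protein disulfide isomerases help the chain to fold. COPII-coated vesicles then carry cargo from the ER towards the Golgi, with p24 proteins and lectins as cargo receptors, and COPI-coated vesicles bring escaped ER proteins back with the help of KDEL receptors. Cells that lay down much extracellular matrix, such as mesenchymal cells making collagen, place a heavy load on this route.

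By role, the signal recognition particle had 8 genes (Srp9, Srp14, Srp19, Srp54a, Srp54b, Srp54c, Srp68 and Srp72). The Sec61 translocon had 6 (Sec61a1, Sec61a2, Sec61b, Sec61g, Sec62 and Sec63), signal peptidase 2 (the catalytic Sec11a and Sec11c), and the translocon-associated protein complex 4 (Ssr1 to Ssr4). There were 5 protein disulfide isomerases (Pdia2 to Pdia6). The COPII coat had 14 genes (Sar1a, Sar1b, Sec13, Sec16a, Sec16b, Sec23a, Sec23b, Sec23ip, Sec24a to Sec24d, Sec31a and Sec31b), and the Sec22 family of ER-Golgi SNARE proteins 3 (Sec22a, Sec22b and Sec22c). The cargo receptors comprised 11 p24 genes (Tmed1 to Tmed11) and 4 lectin genes (Lman1, Lman1l, Lman2 and Lman2l). The COPI coat had 9 genes (Arcn1, Copa, Copb1, Copb2, Cope, Copg1, Copg2, Copz1 and Copz2) and the KDEL receptors 3 (Kdelr1, Kdelr2 and Kdelr3). A read was seen in some library for 66 of them, and 60 had at least 1 read in all 8. Srp54c, Lman1l and Tmed11 had 0 reads in every library, which allows up to 3 reads in each. Pdia2, Sec16b and Tmed6 had under 10 reads over all libraries. Srp54a, Srp54b and Srp54c are near-identical copies, and reads that could not be placed uniquely were not counted, so their split is uncertain.

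Reads that fell on genes numbered between 283461 and 907489 per Direct RNA library and between 948657 and 2088592 per cDNA library. Levels are given as CPM, reads per 1000000 reads on genes of that library, and 3 reads correspond to between 1.44 and 10.6 CPM depending on the library. Such floors and the intervals below cover counting error only. All 7 pluripotency genes checked fell from Undiff to Day4 with both kits, their summed level going from between 10420 and 12369 CPM to 106 and 511 CPM in Direct RNA, and from 20859 and 23479 CPM to 82.7 and 914 CPM in cDNA. Day4 replicate 2 thus kept more of them than Day4 replicate 1 with either kit. All 7 mesenchymal genes checked, collagens among them, rose with both kits, Direct RNA going from between 8.82 and 25.8 CPM to 7433 and 4775 CPM in sum, and cDNA from 5.27 and 3.35 CPM to 560 and 737 CPM. Of 7 basement membrane genes 3 rose with Direct RNA and 1 with cDNA, and of 10 visceral endoderm genes 4 rose and 1 fell with Direct RNA, and 2 rose and 1 fell with cDNA. Of 7 genes of the RA response 6 rose with Direct RNA and all 7 with cDNA. RNA of these marker genes thus moved with state alongside the differences below, and its part in them was not tested. In bulk RNA, fewer cells of a type and less RNA per cell cannot be told apart.

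After RA, 3 genes of vesicle traffic rose with both kits: the KDEL receptor Kdelr1 and the p24 cargo receptors Tmed3 and Tmed4, each by 3.25-fold or more in mean CPM. The lectin Lman2l also rose in cDNA, and Sec61g, the smallest subunit of the protein channel, fell there. No gene of the signal recognition particle, signal peptidase, the disulfide isomerases, or the COPII or COPI coats was called by DESeq2 with either kit. Under other settings COPI genes were called, Copz2 in Direct RNA and Copa in cDNA by edgeR, and Copa and Copb1 in cDNA by DESeq2 among genes with 10 or more reads per library. The question was which steps of the route changed in RNA level as ESCs differentiated. A gene was called when the adjusted p of DESeq2 was at most 0.05, its shrunken log2 fold change at least 1 in size, and its mean normalised count at least 5.

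In Direct RNA, 3 of the 60 members with a mean count of at least 5 were called higher in Day4, where 9.54% of all genes tested were, and 0 were called lower, where 7.67% of all genes were. In cDNA, 4 of 60 were called higher against 8.69% of all genes, and 1 was called lower against 9.24% of all genes. The share of members called was thus below the background in both directions with each kit. The edgeR quasi-likelihood test called 10 members higher in Direct RNA, where it called 20.6% of all genes higher, adding Copz2, Kdelr2, Kdelr3, Lman2l, Sec22b, Sec61a2 and Sec63. It called 0 lower there, beside 14.9% of all genes. In cDNA edgeR called 5 higher, where 16.4% of all genes were, adding Copa, and 1, Sec61g, lower, beside 14.3%. When the DESeq2 fit kept only genes with 10 or more reads per library, Copa, Copb1, Sec22b and Ssr3 were also called higher in cDNA and Lman2l was no longer tested, which gave 7 of 50 members (14%) beside 9.38% of all genes. That filter raised the median log2 fold change of all genes it kept by 0.18 in cDNA. At an unadjusted p under 0.05 DESeq2 had 12 of 60 members with each kit, beside 30.7% of all genes with Direct RNA and 31.2% with cDNA.

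The members as a set lay slightly above 0. Their median log2 fold change was 0.29 in Direct RNA and 0.26 in cDNA, beside 0.03 and 0.00 over all genes tested. With each kit 42 of the 60 had a fold change above 0, which is 70%, beside 51.1% of all genes in Direct RNA and 50.1% in cDNA. The 69 genes together took 0.736% and 0.742% of the reads in Direct RNA Undiff and 1.000% and 0.920% in Day4. In cDNA they took 0.808% and 0.838% in Undiff and 1.143% and 1.228% in Day4. The Day4 libraries were above the Undiff libraries with both kits. On the CPM scale, both Day4 libraries lay above both Undiff libraries for 32 of 61 members in Direct RNA, beside 36.9% of all genes, and below for 4, beside 30.4%. In cDNA this held for 38 of 61 members above, beside 44.1% of all genes, and 2 below, beside 22.2%. The DESeq2 scale, which sets the middle gene to no change, moves Day4 against Undiff by -0.33 log2 units relative to CPM in cDNA and by -0.10 in Direct RNA.

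**Figure D1:**
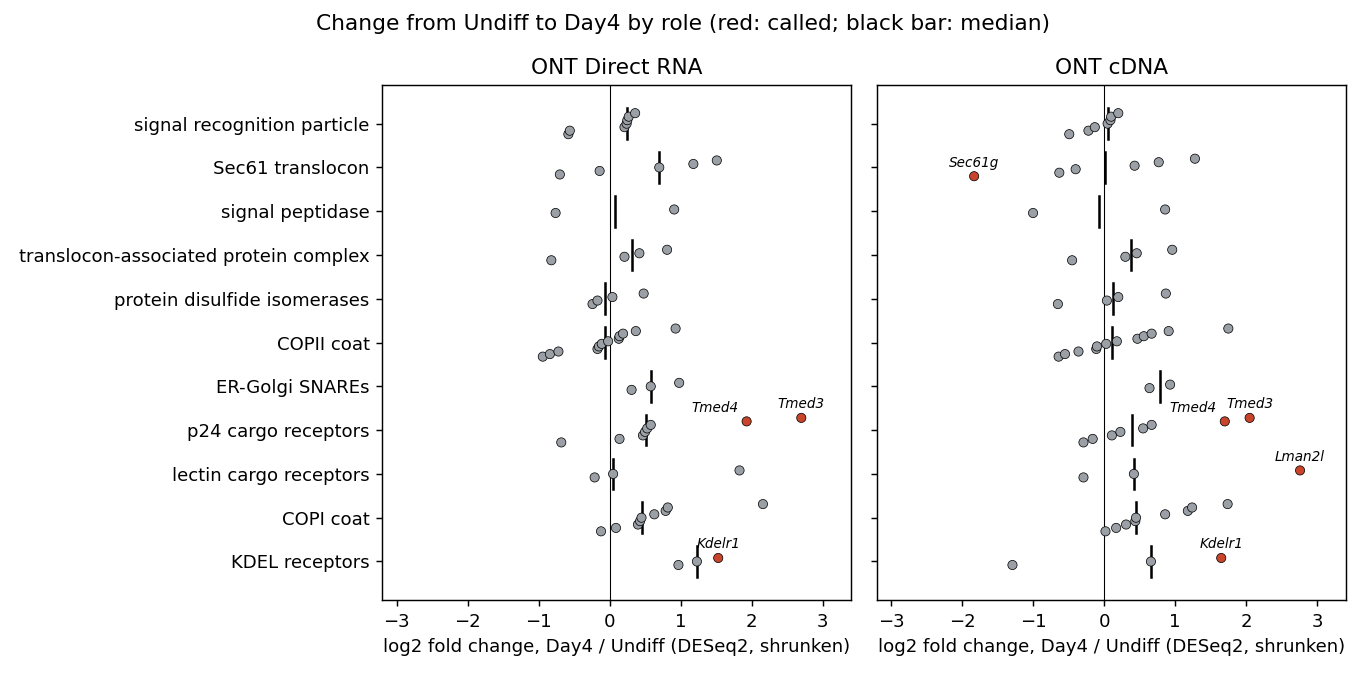
Shrunken DESeq2 log2 fold change from Undiff to Day4 for each member with a mean normalised count of at least 5, in rows by role, for Direct RNA (left) and cDNA (right). Red points were called, grey points were not, and the black bars are role medians. Kdelr1, Tmed3 and Tmed4 are red in both panels, while the COPII row is centred close to 0 and the COPI row lies almost wholly to its right.

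Kdelr1 (chr7:45872772-45883732, GRCm38, plus strand) encodes a receptor that binds the KDEL tail of ER chaperones in the Golgi and returns them to the ER. In Direct RNA it stood at 89 and 111 CPM in Undiff and at 367 and 283 CPM in Day4. In cDNA it stood at 26.4 and 34.5 CPM in Undiff and at 106 and 142 CPM in Day4. The states did not overlap with either kit. Mean CPM rose 3.25-fold and 4.07-fold, and the log2 fold changes were 1.53 ± 0.38 (SE; DESeq2 adjusted p = 0.00141) with Direct RNA and 1.65 ± 0.47 (adjusted p = 0.00688) with cDNA. With 1 library left out the Direct RNA call was lost each time, at adjusted p between 0.0577 and 0.24, and so was the cDNA call, at between 0.12 and 0.34. Such fits compare 1 library with 2, and they assume that the lone library varies like the other group.

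Tmed3 (chr9:89699206-89705068, minus strand) is a p24 protein of the gamma subfamily that cycles between the ER and the Golgi. Its Direct RNA levels were 23 and 7.71 CPM in Undiff and 116 and 99 CPM in Day4. Its cDNA levels were 29.5 and 13.9 CPM in Undiff and 126 and 104 CPM in Day4. All Day4 libraries lay far above all Undiff libraries, and with both kits Undiff replicate 2 was the lowest. The log2 fold change was 2.70 ± 0.66 (DESeq2 adjusted p = 0.000922) with Direct RNA and 2.05 ± 0.54 (adjusted p = 0.00273) with cDNA. Without Undiff replicate 2 it fell to 1.94 (adjusted p = 0.386) and 1.49 (adjusted p = 0.249), and the call was also lost without either Day4 library. It held without Undiff replicate 1 with both kits. With the filter of 10 reads per library Tmed3 was not tested in Direct RNA, and the cDNA call held.

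Tmed4 (chr11:6270369-6274870, minus strand) is a p24 protein of the alpha subfamily. Its Direct RNA levels were 34.4 and 27.5 CPM in Undiff and 127 and 136 CPM in Day4. Its cDNA levels were 54.8 and 35.9 CPM in Undiff and 187 and 190 CPM in Day4. The Day4 replicates were close together and apart from Undiff with both kits. The log2 fold change was 1.93 ± 0.54 (DESeq2 adjusted p = 0.00502) with Direct RNA and 1.70 ± 0.46 (adjusted p = 0.00334) with cDNA. Leaving out any 1 library ended the Direct RNA call, at adjusted p between 0.113 and 0.429, and the cDNA call ended without Undiff replicate 2 or either Day4 replicate, at between 0.118 and 0.244.

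Lman2l (chr1:36419871-36445271, minus strand) encodes a lectin of the ER membrane related to the mannose-binding cargo receptor Lman2, and its exons overlap those of Fer1l5 on the opposite strand. Its levels were 11.5 and 11 CPM in Direct RNA Undiff and 42.3 and 52.9 CPM in Day4. In cDNA they were 1.05 and 1.92 CPM in Undiff, which is 1 and 4 reads, and 15.2 and 18.8 CPM in Day4, which is 20 and 39 reads. Day4 lay above Undiff with both kits. The ratio of pooled CPM, Day4 over Undiff, was 10.6 in cDNA (exact interval 4.28 to 33.7) and 4.48 in Direct RNA (2.44 to 8.77). The call was made in cDNA (log2 fold change 2.76 ± 0.98, DESeq2 adjusted p = 0.0461) and not in Direct RNA (1.83 ± 0.80, adjusted p = 0.134), where edgeR gave an adjusted p of 0.00413. The cDNA call was lost without any 1 library, at adjusted p between 0.229 and 0.63, and without shrinkage, at 0.0546.

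The 200 bases before the annotated start of these 4 genes, from the RefSeq promoter table on GRCm38.p6 and read 5′ to 3′ on the gene's strand, are shown because these are the members whose RNA rose. The RefSeq starts of Kdelr1, Tmed3 and Tmed4 lie inside the gene coordinates given above, so part of each of those stretches does too. Capitals mark matches to the motifs described further on, on either strand.
Kdelr1, chr7:45872640-45872839, plus strand: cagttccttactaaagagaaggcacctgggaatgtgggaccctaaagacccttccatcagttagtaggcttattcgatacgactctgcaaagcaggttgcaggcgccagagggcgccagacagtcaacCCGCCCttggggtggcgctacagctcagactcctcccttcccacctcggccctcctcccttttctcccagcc
Tmed3, chr9:89705044-89705243, minus strand: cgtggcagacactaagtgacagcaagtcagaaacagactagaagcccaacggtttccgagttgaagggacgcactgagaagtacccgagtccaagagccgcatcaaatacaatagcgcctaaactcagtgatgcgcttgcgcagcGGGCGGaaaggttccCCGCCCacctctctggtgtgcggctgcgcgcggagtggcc
Tmed4, chr11:6274838-6275037, minus strand: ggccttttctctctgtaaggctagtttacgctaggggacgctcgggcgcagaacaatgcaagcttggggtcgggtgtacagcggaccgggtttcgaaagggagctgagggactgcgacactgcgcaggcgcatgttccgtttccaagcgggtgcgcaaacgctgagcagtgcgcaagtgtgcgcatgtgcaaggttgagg
Lman2l, chr1:36445272-36445471, minus strand: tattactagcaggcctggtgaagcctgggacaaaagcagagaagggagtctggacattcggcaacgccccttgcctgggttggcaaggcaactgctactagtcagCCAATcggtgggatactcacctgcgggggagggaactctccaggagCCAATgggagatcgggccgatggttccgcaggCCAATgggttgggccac

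**Figure D2:**
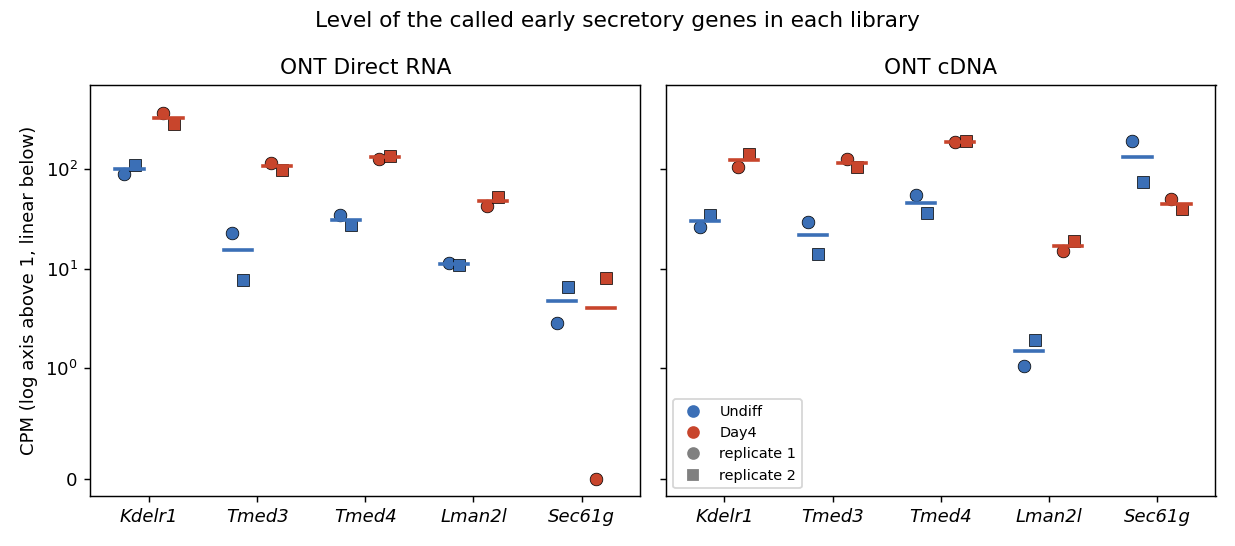
CPM of the 5 called members in each library (log axis above 1 CPM, linear below), Direct RNA on the left and cDNA on the right. Circles are replicate 1, squares replicate 2 and bars group means, with Undiff in blue and Day4 in red. The red points of Kdelr1, Tmed3, Tmed4 and Lman2l lie above the blue ones in both panels, and those of Sec61g lie below them in cDNA only.

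Sec61g (chr11:16500530-16508484, minus strand) encodes the gamma subunit of the Sec61 channel and was the 1 member called lower. In cDNA it stood at 190 and 74.7 CPM in Undiff and at 50.1 and 40 CPM in Day4. The groups did not overlap, and the Undiff replicates differed from each other more than Undiff replicate 2 did from Day4. The log2 fold change was -1.83 ± 0.54 (DESeq2 adjusted p = 0.00887), and without Undiff replicate 1 it was -1.01 (adjusted p = 0.538). The call was also lost without either Day4 replicate and held without Undiff replicate 2. In Direct RNA the gene had 1 and 6 reads in Undiff and 0 and 6 reads in Day4, too few to show a difference of this size.

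At the entry to the ER, the translocon genes ranged more widely between states than those of the signal recognition particle. Across the 7 signal recognition particle genes tested, log2 fold changes lay between -0.58 and 0.36 with Direct RNA and between -0.49 and 0.20 with cDNA. Srp14, which with Srp9 forms the part of the particle that pauses translation, stood at 212 and 166 CPM in Direct RNA Undiff and 201 and 271 CPM in Day4, and at 591 and 500 CPM against 693 and 545 CPM in cDNA. The states overlapped with both kits. Sec61b, the beta subunit of the channel, stood at 241 and 241 CPM in Direct RNA Undiff and 162 and 297 CPM in Day4, and its cDNA states overlapped too. The translocon partner Sec63, a membrane J-domain protein that recruits the chaperone BiP, stood at 23 and 34.2 CPM in Direct RNA Undiff and 109 and 82.7 CPM in Day4, and at 7.38 and 7.18 CPM against 16.7 and 30.8 CPM in cDNA. Day4 lay above Undiff with both kits, but DESeq2 made no call (adjusted p = 0.0818 and 0.347), while edgeR called it in Direct RNA (adjusted p = 0.0042). Sec61a2 had log2 fold changes of 1.18 and 0.77 and was also called by edgeR in Direct RNA (adjusted p = 0.0252), while Sec62 had 0.70 and 0.43 and Sec61a1 -0.70 and -0.63, uncalled by either tool. The median over the 5 translocon genes tested in Direct RNA was 0.70, and over the 6 tested in cDNA it was 0.01.

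Sec11a, a catalytic subunit of signal peptidase, stood at 74.6 and 112 CPM in Direct RNA Undiff and 194 and 198 CPM in Day4. In cDNA it stood at 231 and 153 CPM in Undiff and 431 and 455 CPM in Day4. The states were apart with both kits, and mean CPM was 2.1-fold and 2.31-fold higher in Day4, without passing the test (DESeq2 adjusted p = 0.187 and 0.194). Of the translocon-associated proteins, Ssr3 had log2 fold changes of 0.81 and 0.96 and Ssr2 of -0.82 and -0.45. Ssr2 stood at 465 and 675 CPM in Direct RNA Undiff and 303 and 386 CPM in Day4, and at 910 and 1115 CPM against 974 and 848 CPM in cDNA. Its states were apart in Direct RNA and overlapped in cDNA, and neither difference was called (adjusted p = 0.0925 and 0.596).

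Among the disulfide isomerases, Pdia3, which works on glycoproteins held by the lectin chaperones, stood at 606 and 635 CPM in Direct RNA Undiff and 924 and 944 CPM in Day4. In cDNA it stood at 132 and 312 CPM in Undiff and 376 and 657 CPM in Day4. The states were apart with both kits, and DESeq2 gave log2 fold changes of 0.48 and 0.87 (adjusted p = 0.311 and 0.249). Pdia4, Pdia5 and Pdia6 lay between -0.65 and 0.20 with both kits.

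The COPII coat, which buds vesicles from the ER, had a median log2 fold change of -0.07 in Direct RNA and 0.11 in cDNA over 12 genes, with ranges of -0.94 to 0.93 and -0.64 to 1.75. Sec13, part of the outer cage, stood at 201 and 213 CPM in Direct RNA Undiff and 187 and 207 CPM in Day4, and at 381 and 370 CPM against 343 and 390 CPM in cDNA. The states overlapped with both kits. Sec24d, a cargo-binding subunit, changed by -0.02 ± 0.68 log2 units with Direct RNA and 0.47 ± 0.93 with cDNA. Its standard errors allow changes well past 1 in either direction. The lowest value in Direct RNA was that of Sec23b, a subunit of the inner coat, at 184 and 129 CPM in Undiff against 63.5 and 102 CPM in Day4. Its states were apart there and overlapped in cDNA, with fold changes of -0.94 and -0.10 that were not called (DESeq2 adjusted p = 0.218 and 0.951). The highest fold changes of the coat belonged to its relative Sec24b, at 28.7 and 35.3 CPM against 88.2 and 52.9 CPM in Direct RNA, with fold changes of 0.93 and 1.75 that did not pass (adjusted p = 0.467 and 0.38).

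Sec22b, the SNARE that helps vesicles fuse between ER and Golgi, stood at 34.4 and 72.7 CPM in Direct RNA Undiff and 113 and 130 CPM in Day4. In cDNA it stood at 105 and 109 CPM in Undiff and 216 and 306 CPM in Day4. The states were apart with both kits, at log2 fold changes of 0.98 and 0.93. DESeq2 made no call (adjusted p = 0.291 and 0.13), edgeR called it in Direct RNA (adjusted p = 0.0372), and the cDNA difference was called when the fit kept genes with 10 or more reads per library (1.07, DESeq2 adjusted p = 0.0276).

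The p24 family had 8 members with enough reads, of which Tmed3 and Tmed4 were called with both kits. Among all genes tested, DESeq2 made a higher call for 9.54% with Direct RNA and for 8.69% with cDNA. Whether the family as a set differed from all genes was not tested. Tmed9, another alpha-subfamily member, stood at 204 and 185 CPM in Direct RNA Undiff and 275 and 302 CPM in Day4, and at 180 and 279 CPM against 490 and 417 CPM in cDNA. Its Day4 libraries were above Undiff with both kits, at log2 fold changes of 0.47 and 0.67 that did not pass (DESeq2 adjusted p = 0.541 and 0.368). Tmed2 had between 0 and 17.6 CPM in all libraries. Without the called pair, the p24 genes lay between -0.68 and 0.67. Summed over the family, the level was 568 and 597 CPM in Direct RNA Undiff against 1048 and 1022 CPM in Day4, and 407 and 490 CPM in cDNA Undiff against 986 and 977 CPM in Day4. The lectin Lman2 stood at 201 and 173 CPM against 159 and 183 CPM in Direct RNA, with overlapping states, unlike Lman2l.

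The COPI coat, which returns membrane and receptors to the ER, had fold changes mostly above 0, with no DESeq2 call among genes with a mean count of at least 5. Its fold change was above 0 for 8 of 9 genes in Direct RNA and 9 of 9 in cDNA, with a median of 0.45 with both kits. Cope, the epsilon subunit, stood at 187 and 151 CPM in Direct RNA Undiff and 321 and 308 CPM in Day4, and at 420 and 315 CPM against 1042 and 618 CPM in cDNA. Its states were apart with both kits (DESeq2 adjusted p = 0.146 and 0.236). Copa, the alpha subunit, had fold changes of 0.82 and 1.18 and was called in cDNA by edgeR (adjusted p = 0.0406). With the filter of 10 reads per library, DESeq2 called Copa and Copb1 in cDNA. Copg1, a gamma subunit, stood at 123 and 149 CPM against 282 and 187 CPM in Direct RNA and at 31.6 and 60.8 CPM against 69.8 and 90 CPM in cDNA. Its fold changes of 0.63 and 0.44 were not called (DESeq2 adjusted p = 0.411 and 0.773). Summed over the coat, the level was 1320 and 1115 CPM in Direct RNA Undiff against 2028 and 1582 CPM in Day4, and 724 and 763 CPM in cDNA Undiff against 1673 and 1317 CPM in Day4.

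The other KDEL receptors were not called between states by DESeq2. Kdelr2 stood at 51.7 and 120 CPM in Direct RNA Undiff and 240 and 150 CPM in Day4, and at 506 and 577 CPM against 800 and 1404 CPM in cDNA. Day4 lay above Undiff with both kits, and the fold changes of 0.97 and 0.66 were not called by DESeq2 (adjusted p = 0.228 and 0.33). Of the reads of Kdelr1 and Kdelr2 together, Kdelr1 took 63.3% and 48.1% in Direct RNA Undiff and 60.5% and 65.3% in Day4, where the states overlapped. With cDNA it took far less, 4.95% and 5.64% in Undiff and 11.7% and 9.16% in Day4, and there the states were apart. Kdelr3 stood at 17.2 and 15.4 CPM against 52.9 and 36.6 CPM in Direct RNA, with the states apart, and at 11.6 and 2.39 CPM against 2.28 and 3.85 CPM in cDNA, with the states overlapping. Kdelr3 overlaps exons of Ddx17 on the opposite strand.

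The balance of reads between paralogs shifted in some pairs. The share of a pair's reads that went to its first-named paralog is given here, with no test, and the 95% Wilson intervals are drawn in the plot of paralog shares. Sec61a1, the main form of the channel's pore subunit, took 90.2% and 85.4% of the reads of the Sec61a1 and Sec61a2 pair in Direct RNA Undiff and 69.6% and 58.3% in Day4. In cDNA it took 94.1% and 95.4% in Undiff and 83.5% and 88.7% in Day4. Sec61a2 thus took a larger share in all Day4 libraries than in any Undiff library of the same kit.

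Lman2 took 94.6% and 94% of the reads of its pair with Lman2l in Direct RNA Undiff and 78.9% and 77.6% in Day4, and 98.7% and 97.9% against 85.4% and 82% in cDNA. Copz1, the zeta subunit of COPI, took 95.7% and 98.1% of its pair with Copz2 in Direct RNA Undiff and 84% and 86% in Day4. In cDNA it took 87.9% and 98.8% in Undiff and 84.7% and 83.1% in Day4. In these pairs the less read paralog gained share in Day4, with a narrow gap for Copz1 in cDNA. Copz2 itself went from 11.5 and 4.41 CPM to 42.3 and 40.7 CPM in Direct RNA, and edgeR called it (adjusted p = 0.0024) where DESeq2 did not (adjusted p = 0.0993).

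The signal peptidase pair moved the other way. Sec11a took 74.3% and 87.2% of the pair's reads in Direct RNA Undiff and 91.7% and 96.1% in Day4, and 83.6% and 75.3% against 93.7% and 93.8% in cDNA. Sec24b also gained on Sec24a, which took 47.4% and 31.9% in Direct RNA Undiff and 16.7% and 11.4% in Day4, from pairs of 19 to 47 reads. In cDNA Sec24a took 98.7% and 95.7% in Undiff and 88.2% and 83.9% in Day4, so the kits put opposite members of this pair first. The shares of Copg1 with Copg2, Sar1a with Sar1b, and Sec24c with Sec24d overlapped between states with both kits. Sec23a took 32.6% and 30.4% of its pair with Sec23b in Direct RNA Undiff and 63.3% and 38.5% in Day4, with the states apart, and in cDNA the states overlapped (32.7% and 17.5% against 36.6% and 28.8%).

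**Figure D3:**
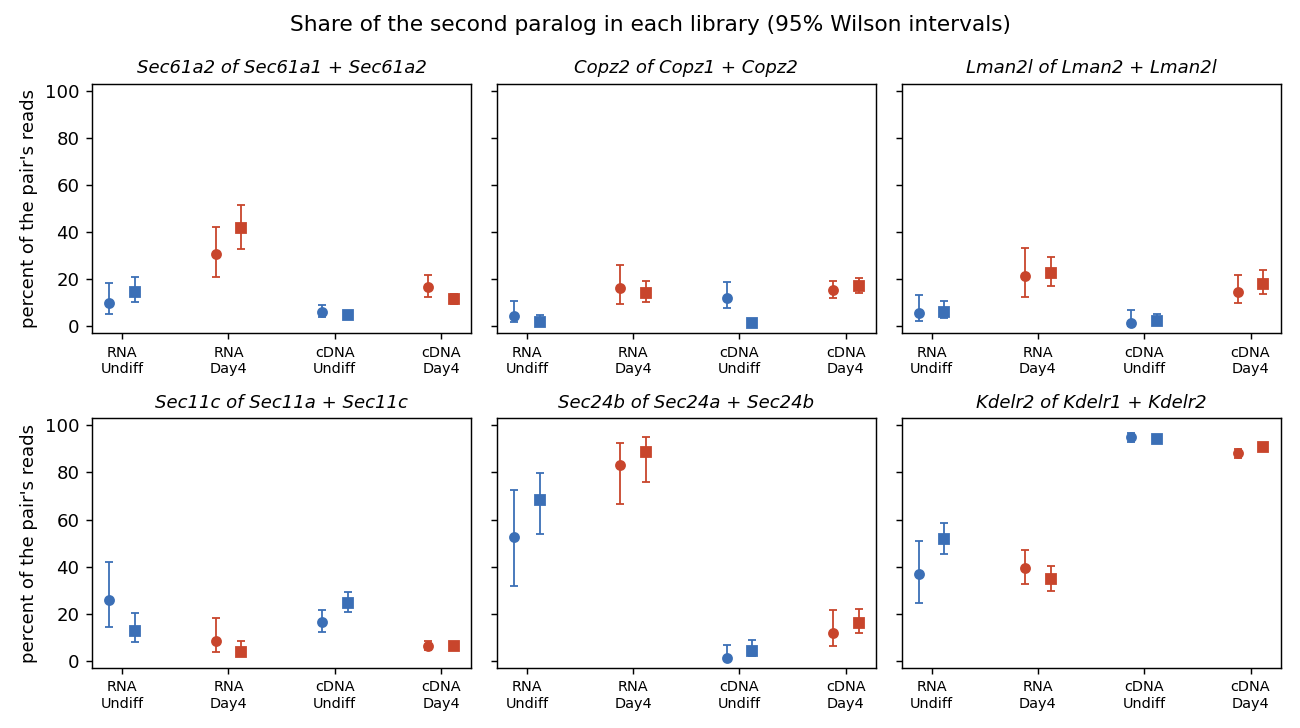
Percent of a pair's reads that fell on the second named paralog in each library, with 95% Wilson intervals that cover counting error only. Circles are replicate 1 and squares replicate 2, Undiff in blue and Day4 in red. The Day4 points of Sec61a2, Lman2l and Sec24b lie above the Undiff points of the same kit, those of Sec11c below them, and Kdelr2 took most of its pair's reads in cDNA but not in 3 of the 4 Direct RNA libraries.

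The promoter windows of the members were searched for 5 motifs, each on both strands, from 250 bases before to 50 after the annotated start. A window was held for 58 of the 69 members. The ER stress response element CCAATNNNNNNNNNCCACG, known as a site for the factors of the unfolded protein response, was found in 1 member, Pdia6, and in 0.137% of 27025 gene symbols. Pdia6 was not called in either state comparison (log2 fold changes -0.17 and 0.20). The element is shown in capitals in a 40-base stretch.
Pdia6, chr12:17266479-17266518, plus strand: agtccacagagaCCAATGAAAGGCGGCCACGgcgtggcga

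The core TGACGTG of the unfolded protein response element was present in 6 members, which is 10.3% of those with a window beside 2.22% of all symbols. The symbols were not matched to the members in expression or base content, and the difference was not tested. Of these 6, Copb1 and Copb2 belong to the COPI coat, Sec16b, Sec23a and Sec24d to the COPII coat, and Kdelr3 is a KDEL receptor. The match, in capitals, lay within 50 bases of the annotated start in each of them. None of these genes was called between states by DESeq2 among genes with a mean count of at least 5, while edgeR called Kdelr3 higher in Direct RNA (adjusted p = 0.0379) and the 10-read filter brought a call of Copb1 in cDNA. The log2 fold changes in Direct RNA and cDNA were 0.43 and 1.24 for Copb1, 0.09 and 0.45 for Copb2, 0.14 and 0.56 for Sec23a, and -0.02 and 0.47 for Sec24d. Kdelr3 differed in sign between the kits, at 1.23 and -1.29, and Sec16b stayed between 0 and 2.71 CPM. The 27-base windows around the matches are given on the strand of each gene, where CACGTCA is the same motif on the other strand.
Copb1, chr7:114254691-114254717, minus strand: cgcccccttcCACGTCAgccaaggact
Copb2, chr9:98563715-98563741, plus strand: ccggaagttcCACGTCAgtgggttggc
Sec16b, chr1:157506742-157506768, plus strand: tctgtgtggcTGACGTGgcacggcagt
Sec23a, chr12:59011995-59012021, minus strand: tcctccccttTGACGTGgcagaggcgg
Sec24d, chr3:123267460-123267486, plus strand: cccgggcgccTGACGTGgcactagcaa
Kdelr3, chr15:79516369-79516395, plus strand: gccgccccgcCACGTCAccgcgcggcc

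The other motifs were common. The GC box GGGCGG was in 39 members (67.2%, beside 38.2% of symbols), the CCAAT box, which also forms part of the ER stress element, in 27 (46.6%, beside 41.1%), and the nuclear receptor half-site AGGTCA in 7 (12.1%, beside 18.1%). The half-site was in no window of the 4 genes that rose. Of these, the printed 200 bases held GC boxes for Kdelr1 and Tmed3 and CCAAT boxes for Lman2l, and the rest of the counted window held a CCAAT box for Tmed4, at -208 from the start, and a GC box for Lman2l, at position 2. These are matches of letters and no measure of binding.

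Beyond the members, 95 further genes of the route were examined, from SRP receptor and oligosaccharyltransferase to collagen export and vesicle tethers. In Direct RNA DESeq2 called 7 of the 91 with enough reads higher, beside 9.54% of all genes, and 0 lower, beside 7.67%. In cDNA it called 12 of 89 higher, beside 8.69% of all genes, and 1, the chaperone Creld2, lower, beside 9.24%. With edgeR 20 of 91 were called higher and 2, Srpr and Creld2, lower in Direct RNA, beside 20.6% and 14.9% of all genes. In cDNA it called 21 of 86 higher and 2, Ost4 and Creld2, lower, beside 16.4% and 14.3%. Serpinh1, the collagen-specific chaperone HSP47, went from 54.5 and 45.2 CPM to 1651 and 1712 CPM with Direct RNA, and with cDNA from 20 and 24.9 CPM to 846 and 1111 CPM. Its log2 fold changes were 4.94 ± 0.32 (DESeq2 adjusted p = 7.03e-49) and 5.01 ± 0.41 (adjusted p = 4.39e-31), above those of every member. It moved with the collagen genes of the mesenchymal list.

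A further 5 genes of the list rose with both kits. Creb3l2, a membrane-bound transcription factor of secretory cells, had log2 fold changes of 4.24 (DESeq2 adjusted p = 0.00408) and 2.76 (adjusted p = 0.0183) from 0 and 1.1 CPM in Direct RNA Undiff, where it was under the floor of 3 reads, so that the first value depends on the fit and is no bound. Mcfd2, the partner of the lectin Lman1 in carrying coagulation factors, went from 23 and 25.3 CPM to 102 and 117 CPM with Direct RNA, and with cDNA from 19 and 36.9 CPM to 85 and 125 CPM. Its partner Lman1 had fold changes of 0.05 and 0.42 (DESeq2 adjusted p = 0.975 and 0.848). Tmx1, a membrane-bound thioredoxin-like oxidoreductase, rose by 1.64 and 1.63 on the log2 scale, the SNARE Stx5a by 1.76 and 1.73, and the oligosaccharyltransferase subunit Tusc3 by 1.26 and 1.73. For all of these the Day4 libraries lay above the Undiff libraries with both kits.

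Of 61 members with enough reads, 22 were called higher in cDNA, where 24.7% of all genes tested were, and 15 were called lower, where 26.6% were. With the filter of 10 reads per library, higher calls no longer outnumbered lower ones. There 13 of 42 members were higher (31%, beside 23.2% of all genes) and 14 lower (33.3%, beside 23.7%). Both shares were then above those of all genes. Of the 37 calls 22 remained, 11 belonged to genes no longer tested, 4 (Srp9, Ssr3, Tmed4 and Tmed9) were lost and 5 others were gained. The filter also moved the kit difference of all genes it kept by a median of -0.40 log2 units. Of the 6 translocon genes 4 were higher in cDNA, among them Sec61g and the short Sec61b, and 1 was lower. Of the 9 COPI genes 1 was higher in cDNA and 4, including the long Copa, were lower, and of the 12 COPII genes tested 3 were higher and 4 lower. The comparison asks how far the level of a gene depends on the kit, with state as a covariate over all 8 libraries, and since both kits read the same cultures it is no test of the cells.

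The highest values for cDNA over Direct RNA were those of Sec61g (log2 fold change 4.42 ± 0.59, DESeq2 adjusted p = 1.2e-12), Kdelr2 (3.24 ± 0.28, adjusted p = 1.76e-29) and Sec24a (2.85 ± 0.39, adjusted p = 2.78e-12). Sec61g had at most 8.13 CPM in any Direct RNA library and at least 40 CPM in any cDNA library. Sec24a had between 6.78 and 25.8 CPM in Direct RNA and between 45.5 and 82.2 CPM in cDNA. None of these 3 genes overlaps an exon on the opposite strand. The lowest were Tmed7 (-2.86 ± 0.31, DESeq2 adjusted p = 5.39e-19), Tmed1 (-2.43 ± 0.37, adjusted p = 7.49e-10) and Sec24b (-2.33 ± 0.47, adjusted p = 3.9e-06). Tmed7, a p24 protein of the gamma subfamily like Tmed3, had between 112 and 250 CPM in Direct RNA and between 10.1 and 17.3 CPM in cDNA. Tmed1 overlaps an exon of Dnm2 on the opposite strand, and Tmed7 one of Ticam2 on its own strand, so their read counts are less certain. The kits did not overlap for any of these 6 genes, of which Sec61g, Sec24a, Sec24b and Tmed1 were not tested with the filter of 10 reads.

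Across the 61 members, the kit difference fell with the length of the principal transcript (Spearman -0.47), as it did across 10397 genes (-0.35). This describes genes, which are not independent replicates. Members with a transcript under 1500 bases had a median log2 fold change of 1.72, beside 1.35 over all such genes. Of these 18 members 13 were called higher in cDNA (72.2%, beside 58.7% of all such genes) and 3 lower (16.7%, beside 9.98%). Those from 1500 to under 3000 bases had a median of 0.32 over 16 genes, beside 0.16 over all such genes. Of these 16 members 5 were called higher (31.2%, beside 21.4%) and 1 lower (6.25%, beside 21.1%). Those of 3000 or more bases had a median of -0.89, beside -0.65 over all such genes. Of these 27 members 4 were called higher (14.8%, beside 14.7%) and 11 lower (40.7%, beside 36.8%), shares close to those of all genes of that length. By the principal transcript, the p24 genes Tmed1 and Tmed7 and the receptor Kdelr3 went against this order, since each is under 1500 bases and was lower in cDNA. The longest annotated transcript of Tmed7 has 7982 bases, however, a length at which a lower value in cDNA follows the order, and which transcript was read was not tested here. In the other direction, the 4 long members called higher were Sec24a, at 6581 bases, Sec62, at 3967, Tmed5, at 3800, and Sec61a1, at 3172.

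**Figure D4:**
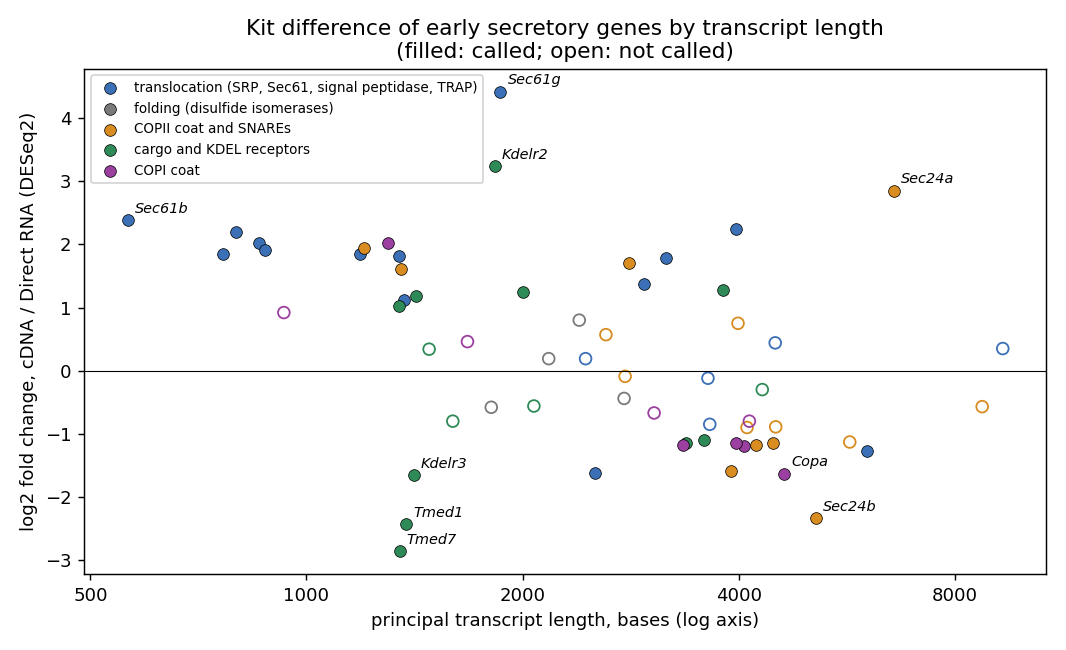
DESeq2 log2 fold change of cDNA over Direct RNA against the length of the principal transcript in bases (log axis) for 61 members, coloured by group of roles. Filled points were called and open points were not. Most points on the left, such as Sec61b, lie above 0 and most coat genes on the right, such as Copa, lie below it. Tmed7, Tmed1, Kdelr3 and Sec24a are among the points away from that trend.

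Of the 61, 20 have an exon overlapping one on the opposite strand, where reads can be assigned differently if strand is used in 1 kit only. They had a median kit difference of -0.62, beside -0.38 over all genes with such an overlap, and 6 were called higher (30%, beside 20.6%) and 7 lower (35%, beside 34.3%). The 41 others had a median of 0.46, beside 0.11 over all genes without one, and 16 were called higher (39%, beside 26.4%) and 8 lower (19.5%, beside 23.1%). The part of strand in the kit difference was not tested.

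Whether the change between states differed between the kits was tested by an interaction term over all 8 libraries. No member was called by DESeq2 or edgeR, where DESeq2 called 0.0116% of all genes, and 1 member had an unadjusted p under 0.05 with either tool. That gene was Kdelr3, whose interaction was -2.84 ± 1.38 on the log2 scale (DESeq2 adjusted p = 1), followed by Sec61g at -1.84 ± 1.20 (adjusted p = 1). For Kdelr1, Tmed3 and Tmed4 the interaction was 0.11 ± 0.58, -0.78 ± 0.88 and -0.29 ± 0.68, errors that leave room for differences of more than 1 log2 unit between the kits. With 2 libraries in a group, p-values measure only the spread between these replicate libraries. The main fit took the 8 libraries as independent, although both kits read the same cultures.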

How the data were processed

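Polyadenylated RNA was sequenced in 8 libraries, 2 for each kit and state, from 500 ng (Direct RNA) or 50 ng (cDNA) of RNA. The deposited values are raw counts of reads for each symbol. The authors obtained them by aligning with minimap2 to mm10, dropping secondary alignments, and counting with HTSeq on the UCSC annotation. Gene counting used the strand for Direct RNA. For cDNA the methods name no setting at the level of genes, while exons of those libraries were counted without regard to strand. Of all reads in the tables, between 38.1% and 61.7% fell on no gene or were set aside by the 5 HTSeq counters, which stayed out of every test and total.

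From these counts CPM was computed, and DESeq2 1.42.0 in R 4.3.3 was fitted to all genes for Day4 against Undiff within each kit, for cDNA against Direct RNA with state as a covariate, and, without shrinkage, for the interaction of kit and state at an adjusted p of at most 0.05. The Wald test used the fold change prior, with the Cook cutoff and independent filtering off, as in the study's methods, and Benjamini-Hochberg adjustment over all genes. edgeR 4.0.16 with TMM factors and filterByExpr was the alternative test. Further alternatives were TMM size factors, a minimum of 10 reads per library, filtering on, no shrinkage, a replicate block and leaving out each library. Fits were tested on simulated data.

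Replicates were compared by a chi-square over genes, and none agreed within sampling noise. Coordinates, the principal transcript (by APPRIS rank, then support level, then length) and exon overlaps come from GENCODE vM21 on GRCm38, and promoters from RefSeq on GRCm38.p6. Genes named are members called between states, the 3 highest and 3 lowest kit differences, the 2 smallest interaction p-values, the member of each role with the highest mean CPM, Copg1 and Sec24d, paralog pairs, and genes of the wider list called with both kits. Further genes were named after their values were seen, among them Sec63, Sec24b, Copa, Copz2, Ssr3, Tmed2 and those with promoter matches. The members and lists were chosen with earlier results of these data known.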

Additional observations from a re-analysis of the deposited data

How the results depend on the processing

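Only 2 libraries stood in each group, which limits every call. The 3 members called in Direct RNA became 10 with edgeR and between 0 and 1 with 1 library left out. The 5 called in cDNA became 8 where only genes with 10 or more reads per library were kept, and between 0 and 3 with 1 library left out. Other settings kept both counts, and those of the 37 kit calls and of the interaction, within 1.5 times, the lowest kit count being 27 with that same filter, 22 of them among the 37. In Direct RNA that filter left 2 calls, since Tmed3 was not tested. The filter keeps fewer genes, and the cause of the other differences was not tested. TMM scaling moved the median of all genes by 0.11 log2 units for the interaction and by less than 0.1 elsewhere. Replicate numbers are shared by the groups, but nothing in the sources says that a number pairs Undiff with Day4. With the replicate block, 2 members were called in Direct RNA, without Tmed4 (adjusted p = 0.0878), 4 in cDNA, without Lman2l (adjusted p = 0.19), 35 between kits and 0 for the interaction. Same-numbered replicates deviated together between states (r = 0.215 in Direct RNA and 0.498 in cDNA over 1395 genes) and between kits in Undiff (0.129), and oppositely between kits in Day4 (-0.417). Crossing the Day4 numbers, an alternative chosen after seeing the data, gave 35 kit calls and 0 interactions. Values that changed sign all belonged to differences that were not called. With 1 library left out, the log2 fold changes between states in Direct RNA lay between -1.05 and 0.38 for Sec61g, reaching 0.20 and 0.38 without Undiff replicate 2 and Day4 replicate 1, between -0.31 and 0.25 for Sec24d, between -0.02 and 0.49 for Srp14 and between -0.67 and 0.26 for Sec61b. In cDNA those of Srp14 lay between -0.37 and 0.15. The filter of 10 reads gave 0.08 for Sec24d in Direct RNA and 0.04 for Srp14 in cDNA. The interaction of Sec61g lay between -2.76 and 1.27 with 1 library left out. Over the named members, 421 alternative values kept direction and call, 31 lost the call, 4 gained it and 10 reversed.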
